A study of Microtus ochrogaster with 2 samples.

Results

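The genes described here encode subunits of voltage-gated calcium channels, and they were read from 1 list of H3K4me1 peaks in the retrosplenial cortex, which lies behind the cingulate cortex along the midline, of the prairie vole (Microtus ochrogaster). The list of genes named 10 subunits. A peak was assigned to a gene when at least 1 base of it fell in the locus, which is the gene body in RefSeq annotation of assembly MicOch1.0 with 5 kb added on each side. Of the 10 genes, 7 had a position that could be matched to the peak list, among 13975 protein-coding genes with such a position and 20077 in all. Cacna1a is missing, because the annotation does not place it on a chromosome. Cacna1c and Cacna1e have only a candidate position, so they are described apart and enter no count below unless named. The 7 placed loci held 76 of the 36238 peaks in the list.

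The tissue came from males aged 30 to 40 days. The design speaks of 8 males, without saying how many of them entered each library. The peak list compared 1 library of chromatin pulled down by an H3K4me1 antibody with 1 input library, made from the same tissue without antibody. After the peak caller's filter they held 37430265 and 47554684 fragments. Neither library had a replicate, so no p-value is given for any comparison between genes, and the spread between animals is unknown. Retrosplenial cortex mixes many cell types, and fewer cells carrying the mark cannot be told apart from less of it per cell. Of the marker genes that could be placed, 4 of 5 for excitatory cortical neurons carried a peak, 0 of 6 for inhibitory neurons, 2 of 4 for astrocytes, 2 of 3 for oligodendrocytes, 1 of 4 for microglia and 1 of 4 for hepatocytes, which were not sampled. Across all 13975 protein-coding genes with a position 46.0% had a peak in the locus. These lists mix short and long genes, and a peak does not measure expression. The longest locus was 158.1 kb, that of Mef2c, among the excitatory markers and 80.0 kb, that of Gad2, among the inhibitory ones. Apart from Mef2c, the excitatory loci ran from 13.2 to 73.6 kb, and the inhibitory ones from 11.3 to 80.0 kb. The excitatory marker Tbr1, at 18.2 kb, carried a peak and Neurod6, at 13.2 kb, did not. The inhibitory markers Gad1 and Gad2, at 50.5 and 80.0 kb, carried none. Whether length bears on these shares was not tested, and no difference between lists was tested.

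Voltage-gated calcium channels open when a neuron depolarises and let calcium in, which triggers transmitter release, shapes firing and reaches the nucleus as a signal for transcription. A channel is built around an α1 subunit, which forms the pore and senses voltage. The α1 genes fall into L-type, P/Q-, N- and R-type, and T-type channels. An extracellular α2δ subunit and an intracellular β subunit help to bring L-, P/Q-, N- and R-type channels to the membrane and tune their opening. H3K4me1, histone H3 with 1 methyl group on lysine 4, is found at enhancers and around active promoters. Its peaks inside a gene mark candidate enhancers without showing which gene they act on.

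Each of the 7 placed loci carried at least 2 peaks, and in all but Cacna1g every midpoint lay inside the gene. Across all 13975 genes 46.0% had a peak in the locus, but the channel genes are long, and longer loci more often held one. The share was 66.3% for loci of 50 to 100 kb, 76.3% at 100 to 200 kb, 90.2% at 200 to 500 kb and 92.9% at 500 to 1000 kb. Carrying a peak is therefore common among genes of this length, and the median number of peaks was 6 at 200 to 500 kb and 12 at 500 to 1000 kb. Peaks covered a median of 3.12% of the 7 loci and 0% of all 13975 loci, and the medians of the 4 length bands ran from 0.715% to 1.05%. The median of the 7 was 1.84% with the gene body alone and 2.04% with 50 kb flanks. Each of the 7 genes lay above the median of its own band in all 3 settings. Taken as one, the 7 loci held 3.46 peaks per 100 kb over 1.94% of their bases, and 98.7% of the peaks (75 of 76, 95% Wilson interval 92.9 to 99.8%) had their midpoint in the gene body. Long bodies beside 5 kb flanks favour such a share.

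**Figure D1:**
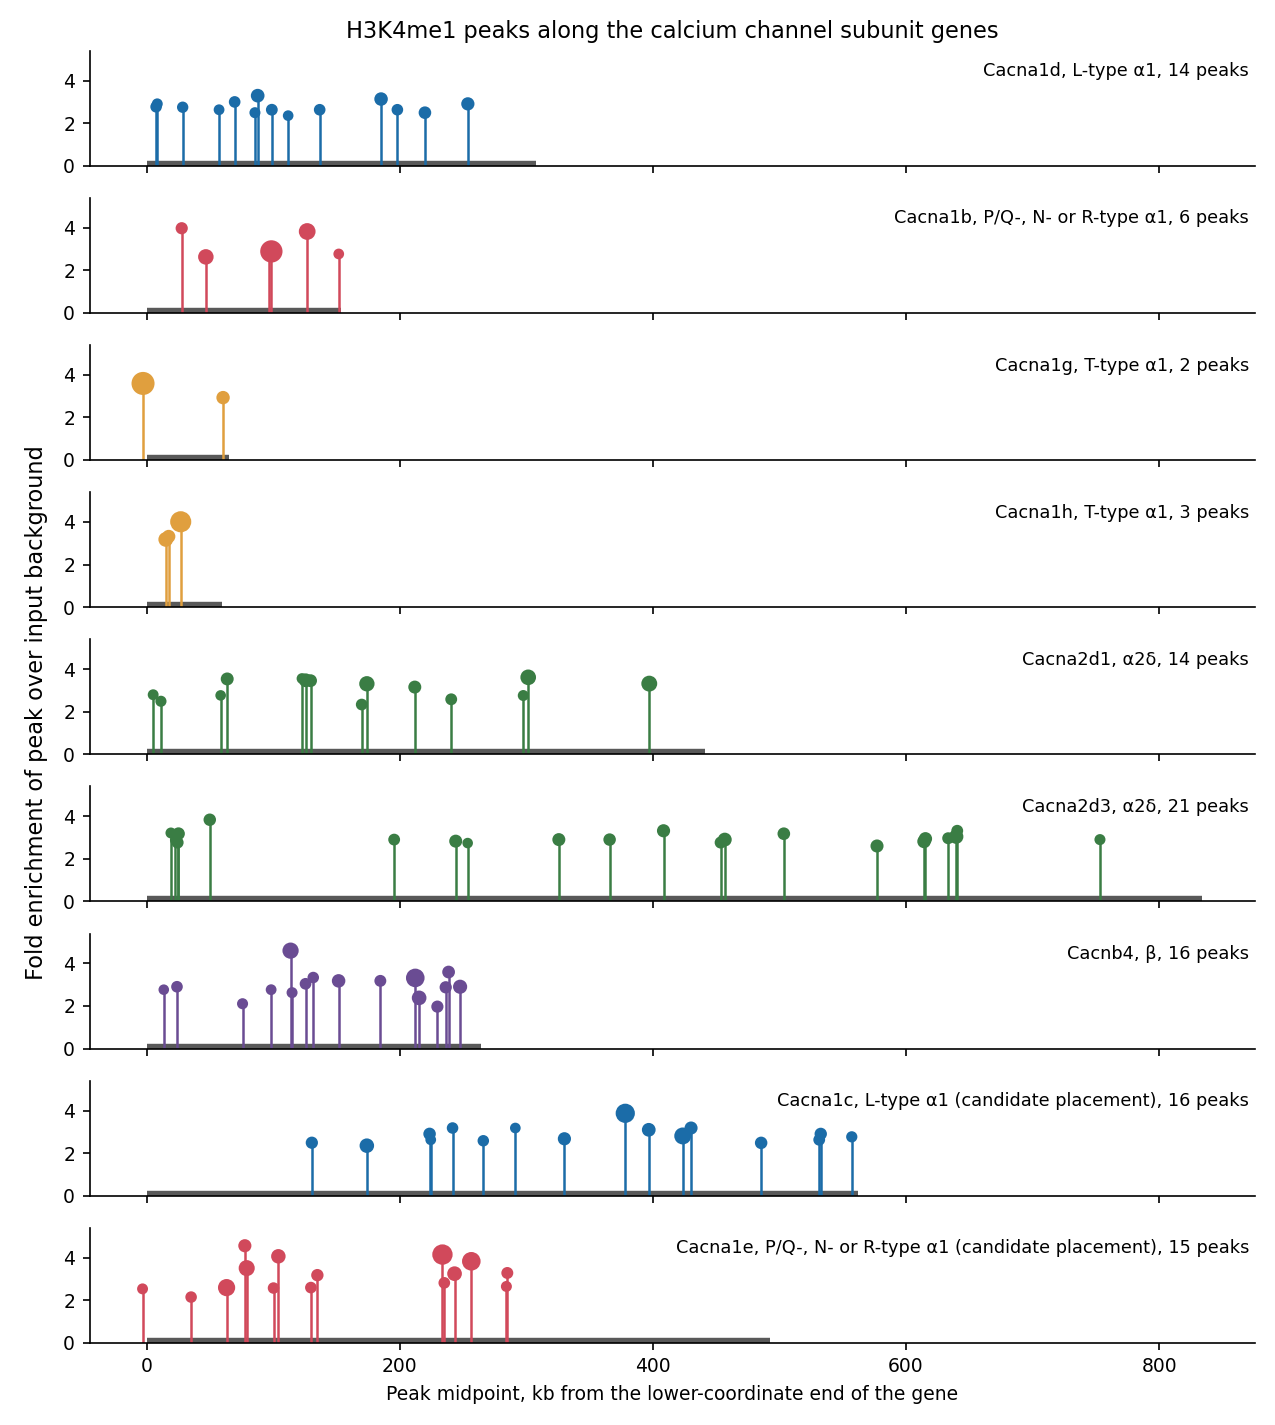
Each panel shows 1 gene, with its body as a grey bar, and each line is a peak at its midpoint in kb from the lower-coordinate end of the gene. Line height is fold enrichment over the input background and dot area grows with peak width. Peaks are spread along Cacnb4, Cacna1d, Cacna2d1 and Cacna2d3, while Cacna1g has 1 peak outside the gene and 1 near its other end.

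The L-type gene with a position was Cacna1d, whose channel opens at fairly negative voltages and supports pacemaking in neurons and other cells. Its locus of 317.5 kb on chromosome 6 held 14 peaks, or 4.41 per 100 kb, and they covered 1.78% of it. The peaks were narrow, from 271 to 622 bp with a median of 372 bp, and weak, from 2.35-fold to 3.29-fold with a median of 2.69-fold. The peak of highest fold, which is what strongest means throughout, was also the widest, at 66227475 to 66228096, with 23 ChIP fragments at its summit. A peak of 3.13-fold at 66324994 to 66325594 had more fragments, 28. When the gene was cut into 3 equal parts from the lower coordinate, they held 8, 4 and 2 peaks. The last midpoint lay 53.8 kb from the higher-coordinate end. The strand was not used here, so it is not said which end is the start of transcription. Of the 570 genes with loci of 200 to 500 kb, 183 had a higher coverage. Chdh lay 2372 bp from the gene, and no peak of the locus overlapped it.

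Cacna1b encodes the α1 subunit of N-type channels, which drive transmitter release at many presynaptic terminals. Its locus of 163.8 kb on chromosome 4 held 6 peaks, or 3.66 per 100 kb, over 3.15%. The strongest, at 52738656 to 52739094, reached 3.97-fold with 31 fragments in 439 bp. The widest, at 52808628 to 52810832, ran over 2205 bp at 2.89-fold, and a gap of only 659 bp parted it from a narrow peak beside it. A further peak of 1087 bp reached 3.82-fold. The last of the 6 lay 2.07 kb from the higher-coordinate end, the one peak at any of the 7 genes with its midpoint within 2.5 kb of a gene end. By that measure 1 of 7 genes had a peak near an end, beside 27.3% of the 3401 genes with loci of 60 to 1000 kb. Among the 1196 genes with loci of 100 to 200 kb, 196 had a higher coverage than Cacna1b.

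The T-type genes Cacna1g and Cacna1h encode channels that open near the resting potential and support burst firing. Their loci were the shortest of the 7, at 75.1 and 69.4 kb, both on chromosome 7, and with the 5 kb flanks the most covered, at 3.95% and 4.72%. With the gene body alone Cacna1g had 0.90% covered, the lowest of the 7, and Cacna1h 5.52%, the highest, and with 50 kb flanks they had 2.04% and 2.60%. Few but wide peaks made up that coverage, 2 at Cacna1g and 3 at Cacna1h. At Cacna1h the peaks reached 3.18-fold, 3.32-fold and 4.01-fold with 22, 23 and 28 fragments. All had their midpoints in the lower-coordinate part of the gene, no more than 26.8 kb from that end. The strongest was also the widest, 1932 bp at 2626263 to 2628194. Beyond the midpoint of that peak, the remaining 32.6 kb of the gene, 54.8% of its length, held no other. Tpsg1, which lies 13 bp from that far end, was overlapped by no peak of the locus.

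At Cacna1g the stronger and wider peak lay outside the gene. It ran over 2379 bp at 70349703 to 70352081, the widest of the 76, with 25 fragments and 3.60-fold enrichment, and its midpoint was 2.95 kb beyond the lower-coordinate end. The other, of 586 bp and 2.93-fold, lay inside, 4.81 kb from the higher-coordinate end. The 60.3 kb of gene body (92.6%) before its midpoint held no other peak. Among the 2229 genes with loci of 50 to 100 kb, 145 had a higher coverage than Cacna1h and 200 than Cacna1g. Spata20 lay 4614 bp from Cacna1g and was not overlapped by its peaks.

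The α2δ genes were the longest of the 7 and, with the 5 kb flanks, the least covered. With the gene body alone Cacna1g, at 0.90%, lay below Cacna2d3 at 1.18% and Cacna2d1 at 1.63%. Cacna2d1, whose product is a target of the drug gabapentin, had a locus of 451.2 kb on chromosome 26 with 14 peaks, or 3.10 per 100 kb, over 1.59%. Its peaks ranged from 2.34-fold to 3.62-fold with a median of 3.23-fold, and 8 of the 14 reached 3-fold. The strongest, of 906 bp with 26 fragments, was at 9231160 to 9232065, and the widest, of 947 bp and 3.32-fold, at 9326804 to 9327750. A group of 3 peaks with gaps under 5 kb covered 1439 bp within 7.15 kb, 122.7 to 129.4 kb from the lower-coordinate end. The longest stretch without a peak midpoint, between those of the widest and the strongest, was 95.7 kb. No other protein-coding gene fell in this locus, and 197 of the 570 genes in its length band had a higher coverage.

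Cacna2d3 had a locus of 843.7 kb on chromosome 6 with 21 peaks, the most of the 7, but at 2.49 per 100 kb and 1.17% it was the least dense. No peak exceeded 729 bp. The widest, at 67382013 to 67382741, was 3.04-fold enriched, and the strongest, at 66792325 to 66792794, reached 3.84-fold with 27 fragments. A group of 4 peaks within 6.38 kb lay 19.1 to 25.1 kb from the lower-coordinate end, and the strongest peak stood alone 49.8 kb from it. From the midpoint of that peak, 145.7 kb followed before the next midpoint. The 3 equal parts of the gene held 8, 6 and 7 peaks. Lrtm1, a gene that lies inside Cacna2d3, was overlapped by none of them. In the band of 500 to 1000 kb, 31 of 99 genes had a higher coverage and 17 had more peaks.

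The β gene Cacnb4, in which mutations cause ataxia and seizures in the lethargic mouse, held the densest peaks. Its locus of 274.3 kb on chromosome 4 held 16, or 5.83 per 100 kb, over 3.12%. The strongest of all 76 peaks was here, at 65643124 to 65644126, with 38 fragments over 1003 bp and 4.60-fold enrichment, 113.6 kb from the lower-coordinate end. The widest, of 1419 bp and 3.32-fold with 23 fragments, was at 65741473 to 65742891. The weakest of the 76 was here too, at 65759432 to 65759867, where 25 fragments made only 1.97-fold over a local background of 12.2 fragments. The 3 equal parts held 3, 6 and 7 peaks. Arl5a lay 4140 bp away and was overlapped by none, and 103 of the 570 genes in the length band had a higher coverage.

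With the 5 kb flanks, in order of coverage, the genes ran Cacna1h, Cacna1g, Cacna1b, Cacnb4, Cacna1d, Cacna2d1 and Cacna2d3, which is also their order from the shortest locus to the longest. With the gene body alone Cacna1g moved from rank 2 to rank 7 and the other 6 kept their order, and with 50 kb flanks Cacnb4 led with 2.78%, so the match with length holds only with the 5 kb flanks among these 3 settings. By density the order was Cacnb4, Cacna1d, Cacna1h, Cacna1b, Cacna2d1, Cacna1g and Cacna2d3. Exact Poisson 95% intervals on peaks per 100 kb ran from 3.33 to 9.47 at Cacnb4 and from 1.54 to 3.80 at Cacna2d3, and those of all 7 genes overlapped. The intervals cover counting error only and treat peaks as independent, which neighbours in a group are not. Cacna1g, with 2 peaks, had an interval from 0.322 to 9.62, and Cacna1h, with 3, one from 0.892 to 12.6. Overlap of intervals is not a test of a difference, and none was run, so the order by density is descriptive only. With the 5 kb flanks the T-type genes owed their coverage to the width of a few peaks, and Cacna1d owed its density to many narrow ones.

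**Figure D2:**
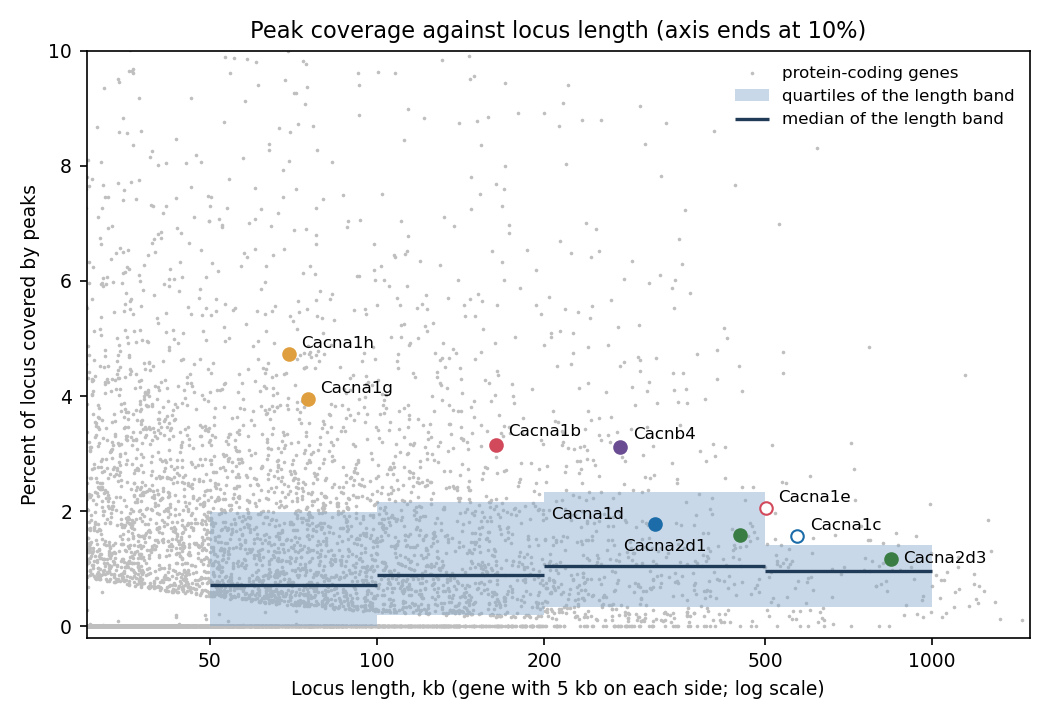
The vertical axis gives the percent of a locus covered by peaks, cut at 10%, and the horizontal axis its length in kb on a log scale. Grey points are protein-coding genes, bars and shading are the median and quartiles of 4 length bands, and large points are the channel genes, open where only a candidate position was available. Cacna1h and Cacna1g lie at 4.72% and 3.95%, and Cacna1b and Cacnb4 at 3.15% and 3.12%, all above the quartiles of their bands. With the gene body alone Cacna1g falls to 0.90%. Cacna2d3 lies close to its band's median at 1.17%.

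Peaks at the 7 genes were of ordinary size for the list. Their median width was 442 bp (quartiles 339 and 600.2 bp), beside 433 bp (327 and 627 bp) over all 36238 peaks. Their median fold was 2.90 (2.76 and 3.29), beside 2.84 (2.59 and 3.18), and both sets had a median of 22 fragments at the summit. At 30 of the 76 (39.5%, Wilson interval 29.2 to 50.7%) enrichment reached 3-fold, and the same held for 36.7% of all peaks. The local background stood at its lowest value in the list, 6.23 fragments, at 42 of the 76 (55.3%, 44.1 to 65.9%) and at 34.5% of all peaks. At such peaks the fold follows the fragment count alone, and this is why 18 fragments give 2.63-fold and 20 give 2.90-fold at several of these genes. None of the 76 lay over a background of more than 5 times that value.

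Counted by gene, all 7 had a peak of at least 3-fold, beside 27.6% of all 13975 genes and 53.7% of the 3401 with loci of 60 to 1000 kb. A peak of at least 4-fold was present at 2, Cacna1h and Cacnb4, beside 4.39% of all genes and 10.5% of those 3401. Peaks of 1 kb or wider numbered 6 and were spread over 4 genes, Cacna1b and Cacnb4 with 2 each and Cacna1g and Cacna1h with 1 each. Of the 3401 genes 22.3% had such a peak. Those 3401 are not matched to the 7 in length, as only 570 genes lie at 200 to 500 kb and 99 at 500 to 1000 kb. Most of their loci are shorter than those of Cacnb4, Cacna1d, Cacna2d1 and Cacna2d3. Shares at these thresholds were not computed by length band. Neither α2δ gene had a peak of 1 kb or wider among 35 peaks, nor did Cacna1d among 14. By class, 4 of 5 T-type peaks reached 3-fold (80.0%, 37.6 to 96.4%) and 2 of 14 at Cacna1d (14.3%, 4.01 to 39.9%). At the α2δ genes 15 of 35 did (42.9%, 28.0 to 59.1%). The Wilson intervals given here treat peaks as independent, but the peaks of a class lie in 1 or 2 genes of 1 ChIP library. No difference between classes was tested, and the overlap of such intervals does not decide one.

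**Figure D3:**
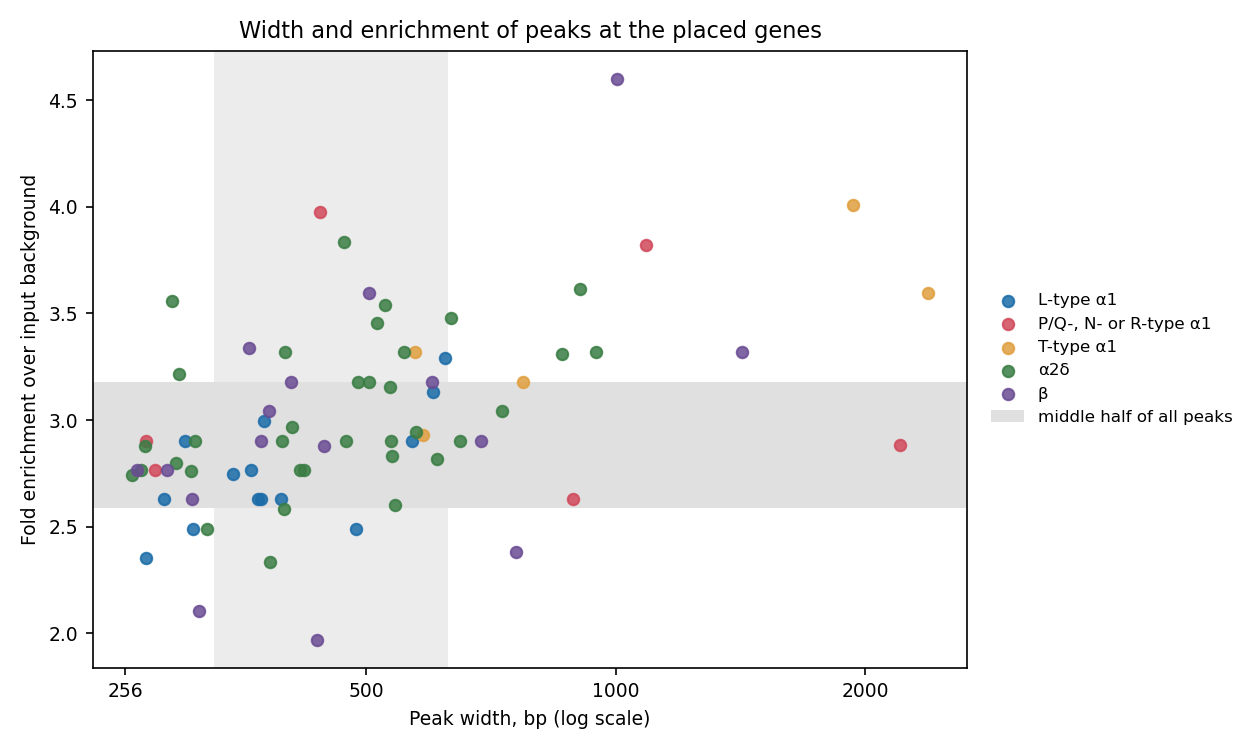
Each point is 1 of the 76 peaks, with its width in bp on a log scale and its fold enrichment over the input background, coloured by subunit class. Grey bands span the quartiles of all 36238 peaks. The T-type peaks reach widths of 1932 and 2379 bp, while no α2δ peak exceeds 947 bp and no L-type peak exceeds 622 bp or 3.29-fold.

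Most peaks stood alone. When peaks with gaps under 5 kb were joined, the 76 fell into 58 groups, of which 43 were single peaks, and the largest was the group of 4 at Cacna2d3. Along the genes the 3 equal parts held 30, 23 and 22 peaks from the lower coordinate upwards, with 1 peak in a flank.

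Cacna1c, the main L-type α1 gene of the brain, is unplaced in the annotation. Sequence lengths were not used, so the last peak stood in for the end of a sequence. The gene ends beyond the last peak of every unplaced sequence in the peak list except 1. On that sequence its locus of 572.3 kb held 16 peaks, or 2.80 per 100 kb, over 1.57%. The strongest was also the widest, 1540 bp with 27 fragments and 3.87-fold enrichment, at 33106190 to 33107729. No peak midpoint fell in the 130.4 kb next to the lower-coordinate end, and the 3 equal parts held 2, 6 and 8. On its stretch beyond the last peak of every other unplaced sequence, 85.5% of 289 peaks fell in the bodies of unplaced protein-coding genes. When the peaks were shifted by 200 or 500 kb, 54.3 to 65.1% did. A sequence that carries no peak, or one that runs on past its last peak, could also hold the gene, so the position is a candidate. In the band of 500 to 1000 kb, 18 of 99 genes had a higher coverage.

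Cacna1e, which encodes the α1 subunit of R-type channels, is annotated on chromosome 6, a name that covers more than 1 sequence. At its coordinates the annotation also has Mgat5, with 125.8 kb in common, so the pair cannot both lie on the same sequence unless the genes overlap. On the unlocalised chromosome 6 sequence the locus of 502.1 kb held 15 peaks, or 2.99 per 100 kb, over 2.06%, while the same coordinates on chromosome 6 itself held 7. The genes listed after the restart of coordinates under that name, Cacna1e among them, took 77.1% of the 315 peaks on the unlocalised sequence into their bodies (52.7 to 61.9% after shifts). On chromosome 6 up to the same coordinate they took 49.5% of 91 (47.3 to 54.9%). With that position the strongest peak, at 3413930 to 3414482, had 32 fragments and 4.56-fold enrichment, and the widest, at 3569472 to 3571243, ran over 1772 bp at 4.15-fold. The midpoints of all 14 peaks in the body lay within 284.9 kb of the lower-coordinate end. The last 207.2 kb (42.1%) held no further midpoint.

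The other subunit genes ranged from no peak to 24. Of 16 in a further list, 10 could be placed and 5 carried a peak, with a median coverage of 0.115%. Across all 13975 genes 46.0% had a peak in the locus. Of the 10 loci 4 were 100 kb or longer, and the shortest were those of Cacng1 and Cacnb3, at 22.6 and 23.0 kb. Whether length bears on the number with a peak was not tested. Cacnb2, a β gene best known from heart and also present in brain, had 24 peaks over 5.36% of 241.6 kb, with up to 4.11-fold enrichment, more in number and share than any of the 7. Its density of 9.94 per 100 kb had an interval from 6.37 to 14.8, which overlaps that of Cacnb4. A group of 5 of its peaks covered 4270 bp within 6.26 kb, and 38 of the 570 genes in its length band had a higher coverage.

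The T-type gene Cacna1i, prominent in thalamus, had 3 peaks within 4.86 kb, the strongest at 4.15-fold, over 1.45% of its locus. A single peak was found at Cacna1s, the α1 gene of skeletal muscle (3.97-fold), at Cacng5 (2.90-fold) and at Cacng2, which encodes the AMPA receptor partner stargazin (2.60-fold). In each of these 3 the midpoint lay in a flank. The loci of Cacna2d2, of the β gene Cacnb3, of Cacna1f, the retinal L-type α1 gene, and of Cacng1 and Cacng4 held none. Cacna2d2 is the long one among them, at 140.4 kb, and 76.3% of genes in its band had a peak. Cacna2d4, Cacnb1, Cacng3, Cacng6, Cacng7 and Cacng8 were not analysed here.

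**Figure D4:**
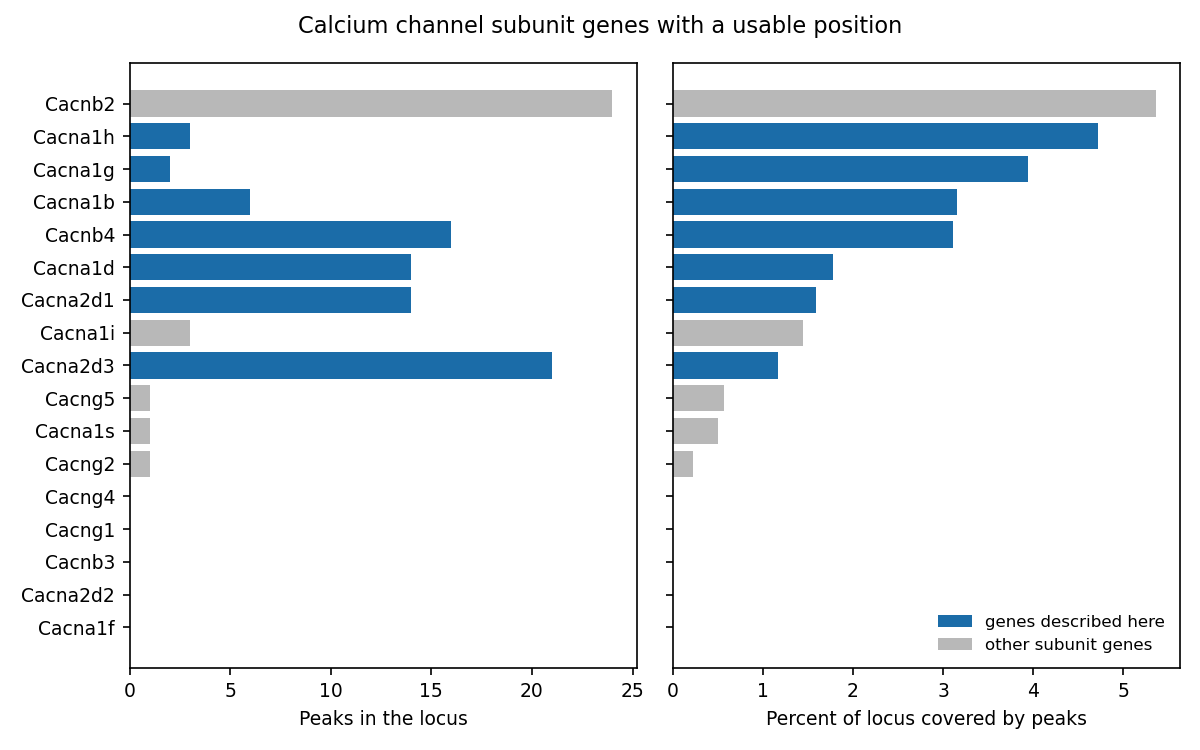
Bars give the number of peaks (left) and the percent of the locus covered (right) for the 7 genes described here in blue and for 10 other calcium channel subunit genes in grey. Cacnb2 leads in both with 24 peaks and 5.36%, Cacna2d3 is second in number but low in coverage, and 5 of the other genes have no bar because no peak fell in the locus.

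Among partners of the channels and genes of intracellular calcium handling, 13 of the 15 that could be placed carried a peak. The median coverage of the 15 was 2.17%. Across all 13975 genes the share with a peak was 46.0%. Of the 15 loci 9 were 100 kb or longer, and 76.3% of all loci of 100 to 200 kb held a peak. The other 10 genes listed were not analysed here. Atp2b1, a calcium pump of the plasma membrane, had 16 peaks over 8.99% of its locus. Calm2, whose product binds L-type and other channels as a calcium sensor, had 3 peaks over 6.48%. Of 8 placed genes for α subunits of voltage-gated sodium channels, 2 carried a peak, Scn8a with 5 peaks over 2.25% and Scn3a with 2 over 0.815%. The share over all genes is the same 46.0%, and 4 of the 8 loci were 100 kb or longer. Scn1a and Scn2a, also on that list, were not analysed here. The list also includes genes of muscle, heart and sensory neurons, and expression was not measured. These lists differ in gene length, and no difference between them and the calcium channel genes was tested.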

How the data were processed

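Per the file headers, the authors called peaks with MACS 2.0.10.20131216 from 1 ChIP and 1 input file of paired-end fragments, with a q cutoff of 0.05 and an effective genome size of 1.89e+09. BWA 0.7.12, SAMtools 0.1.19 and MACS2 2.0.10 are listed in the submitters' processing notes, while the header's file names mention Stampy, so the aligner is uncertain. The deposited signal is the pileup of ChIP fragments at a summit, and the deposited −log10 p and q are the caller's. The deposited fold was read as this pileup divided by a background taken from the input, with 1 added to both. These are the authors' own values per peak, and they served for description, ranking and filtering. Local background was computed as pileup plus 1 over fold, minus 1, and a background within 0.01 of the lowest counted as lowest.

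Which genome build the list uses is not given in the sources used. On chromosomes 4, 6 (beyond 20 Mb), 7 and 26 gene bodies of MicOch1.0 held 71.2 to 82.5% of peaks, and 41.7 to 61.3% after shifts of 200 or 500 kb. Genes on 28 sequences were used, leaving out unplaced ones, chromosome 14 and chromosome 6 below 20 Mb. Peak coordinates are as deposited, counted from 1. Overlap counts were tested on peaks placed at known positions. The named genes were all 10 listed, their strongest and widest peaks, overlapping neighbours, all other subunit genes and the 3 partner or sodium channel genes of highest coverage with a peak, of which 1 is not reported here. Scn1a and Scn2a were also named, as not analysed. The genes, lists and length bands were chosen with earlier results of these data known. Python 3.11.15, pandas 2.3.3, NumPy 2.4.6, SciPy 1.17.1 and matplotlib 3.10.9 were used. No sequence is printed, since none was at hand.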

Additional observations from a re-analysis of the deposited data

How the results depend on the processing

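All 7 placed genes kept a peak under each of 6 alternatives in flank, overlap and peak threshold, and 9 of 9 had one when Cacna1c and Cacna1e were added, an alternative chosen after seeing the data. The stricter peak sets lower counts by construction. With the 50% of peaks of highest −log10 q, the lower q values, 37 of the 76 peaks were left, 3 at L-type, 3 at P/Q-, N- and R-type, 19 at α2δ and 7 at β genes, and the median coverage fell from 3.12% to 1.70%. With the 25% of highest fold, 26 were left, with 1, 2, 13 and 6 in the same order, and the median was 1.04%. The T-type genes kept 5 and 4 of their 5 peaks in these runs. With 50 kb flanks the T-type count was 8, the median coverage 2.04% and the share of midpoints in gene bodies 89.3%. With the gene body alone the median was 1.84%, because the wide peak beside Cacna1g dropped out and took that gene to 0.90%, and that share was 100% by construction. With Cacna1c and Cacna1e the L-type count was 30, the P/Q-, N- and R-type count 21 and the median coverage 2.06%. Placing peaks by midpoint and leaving out peaks over a raised background moved none of the 9 family values. For single genes 13 counts moved by more than 1.5 times, 11 of them in the stricter peak sets. No paired analysis was possible because each group had 1 library, and for the same reason no replicate could be left out. Depth limits weak marks: where the background was lowest, the list starts at 16 fragments.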
